A study of Homo sapiens with 22 samples.

Results

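The DNAJ family comprises the J-domain (HSP40) co-chaperones, and its members were taken as all gene symbols made of DNAJA, DNAJB or DNAJC followed by a number and at most 1 letter. The rule found 44 of the 20668 symbols measured: 4 of class A, 12 of class B and 28 of class C. Of these, 35 had an RPKM (reads scaled to transcript length and to the mapped reads of the sample) of at least 0.5 in at least 2 of the 10 RNA-seq samples, namely 3 of class A, 9 of class B and 23 of class C. All genes past the same filter numbered 12713. RNA was sequenced from MDA-MB-231, an established triple-negative breast cancer (TNBC) cell line with a mutant p53, kept in phenol red-free medium with charcoal-stripped serum before treatment. The 5 groups were vehicle, dexamethasone (Dex, a synthetic glucocorticoid) at 100 nM for 2 h or 4 h, and Compound A (CpdA, a selective modulator of the glucocorticoid receptor) at 10 μM for 2 h or 4 h. Each group had 2 biological replicates, no group carried a genetic change, and all of them came from this 1 cell line. No time is attached to vehicle in the sample labels, although the data headers name 1 vehicle sample for 2 h and the other for 4 h. Both served as the reference for every treatment, so the spread between the vehicle samples may include a difference of time.

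A J-domain protein brings a client to HSP70 and stimulates its ATPase, which closes HSP70 on the client, and exchange factors then release ADP so that the cycle can start again. Class A members carry the J domain, a glycine- and phenylalanine-rich linker and a zinc finger, class B members lack the zinc finger, and class C members share only the J domain and serve many specialised sites, among them the endoplasmic reticulum (ER), mitochondria, the ribosome and synaptic or secretory vesicles. DNAJB1 and several cytosolic relatives are classical targets of heat shock factor 1, while DNAJB9, DNAJB11 and DNAJC3 are targets of the unfolded protein response of the ER. The unliganded glucocorticoid receptor is itself a client of the HSP70 and HSP90 machinery, with DNAJ proteins acting early in that cycle.

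Read totals were not in the data, and the relative depth read from the RPKM steps ran from 1.0 to 1.212, with the vehicle samples at 1.0 and 1.013 and all treated samples at 1.058 or more. VIM, CD44, EGFR and NR3C1, the glucocorticoid receptor gene, were present in all samples (lowest values 1267, 120, 26.7 and 9.96 RPKM), and ESR1 and PGR reached at most 0.005 and 0.003 RPKM. ERBB2 and EPCAM, which had been listed as low or absent in this line, lay between 15.9 and 21.6 RPKM and between 8.02 and 10.6 RPKM. Leukocyte, endothelial and liver markers stayed low, with PTPRC at most 0.063, PECAM1 at most 0.324 and ALB at most 0.032 RPKM. Sequencing lanes were not given per sample, so a lane and a group cannot be told apart. In bulk RNA, fewer cells with a transcript and less of it per cell cannot be told apart either.

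In vehicle-treated cells the members past the filter spanned 1.57 RPKM (DNAJC27) to 125 RPKM (DNAJA1), with a median of 14.1 RPKM. DNAJA1, the main cytosolic class A protein, stood at 125 ± 9.15 RPKM (SD, n = 2), followed by DNAJB1 at 81.6 ± 3.65, DNAJB6 at 58.5 ± 0.267, DNAJB11 at 50.8 ± 0.888 and DNAJC5 at 48.9 ± 3.05 RPKM. The vehicle values of DNAJB11 and DNAJC5 overlapped, so those 2 neighbours in the order did not differ beyond their spread. DNAJB1 ranked second in vehicle and first in each of the 4 treated groups, and DNAJB9, an ER member, moved from rank 9 in vehicle to rank 4 after CpdA for 4 h. All 35 members past the filter had at least 1 RPKM in every sample, so none entered only through a group in which it was high. The 9 members below the filter reached at most 0.550 RPKM (DNAJC28). They were DNAJA4, DNAJB7, DNAJB8, DNAJB13, DNAJC5B, DNAJC5G, DNAJC12, DNAJC22 and DNAJC28, several of which are known from testis or brain.

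Changes were fitted over all genes with limma on log2(RPKM + 0.1), and a member was called at an adjusted p under 0.05 (Benjamini-Hochberg over the 12713 genes). Fold changes are on that scale. Of the 35 members tested, 4 were called with Dex at 2 h, 2 higher and 2 lower, which is 11.4% of the members against 10.3% of all genes (4.49% higher and 5.82% lower). With Dex at 4 h 7 members were called, 4 higher and 3 lower, which is 20% against 27.4% of all genes (9.26% higher and 18.2% lower). With CpdA at 2 h 5 members were called, all higher, which is 14.3% against 6.18% of all genes (1.89% higher and 4.29% lower). With CpdA at 4 h 11 members were called, 10 higher and 1 lower, which is 31.4% against 20.5% of all genes (6.76% higher and 13.8% lower). The share of the members was set beside that of all genes as a description, with no test of the difference. The 4 comparisons share the same vehicle samples, so they are not independent of each other.

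Between 1 and 3 members also passed a fold change of 2, all of them higher. This was DNAJB4 with Dex at either time, DNAJB1 with CpdA at 2 h, and DNAJB1, DNAJB4 and DNAJB9 with CpdA at 4 h. Of all genes, 1.34% and 2.1% were called higher past that fold with Dex at 2 h and 4 h, and 0.338% and 0.535% with CpdA. In total 16 members were called in at least 1 treatment, 8 with Dex and 11 with CpdA. For totals over several comparisons, here and below, the share of all genes was not counted. They are therefore not read as a trait of the family. DNAJB1, DNAJB4 and DNAJB6 were called with both ligands, and DNAJB1 and DNAJB4 in all 4 comparisons.

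Leaving out single libraries moved these counts, and in the runs named here the number of all genes called moved in the same direction. Such moves are therefore not read as a trait of the members. Without vehicle replicate 1 the count with Dex at 2 h was 8 instead of 4, and without Dex 4 h replicate 2 the count with Dex at 4 h was 11 instead of 7. Without either CpdA 2 h replicate the count with CpdA at 2 h was 3 instead of 5, the calls of DNAJB5 and DNAJC25 being lost. Scaling each sample to the same median gave 6 higher and 2 lower members with Dex at 4 h, in place of 4 and 3. DNAJB1 and DNAJB4 kept their 4 calls in every alternative run.

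**Figure D1:**
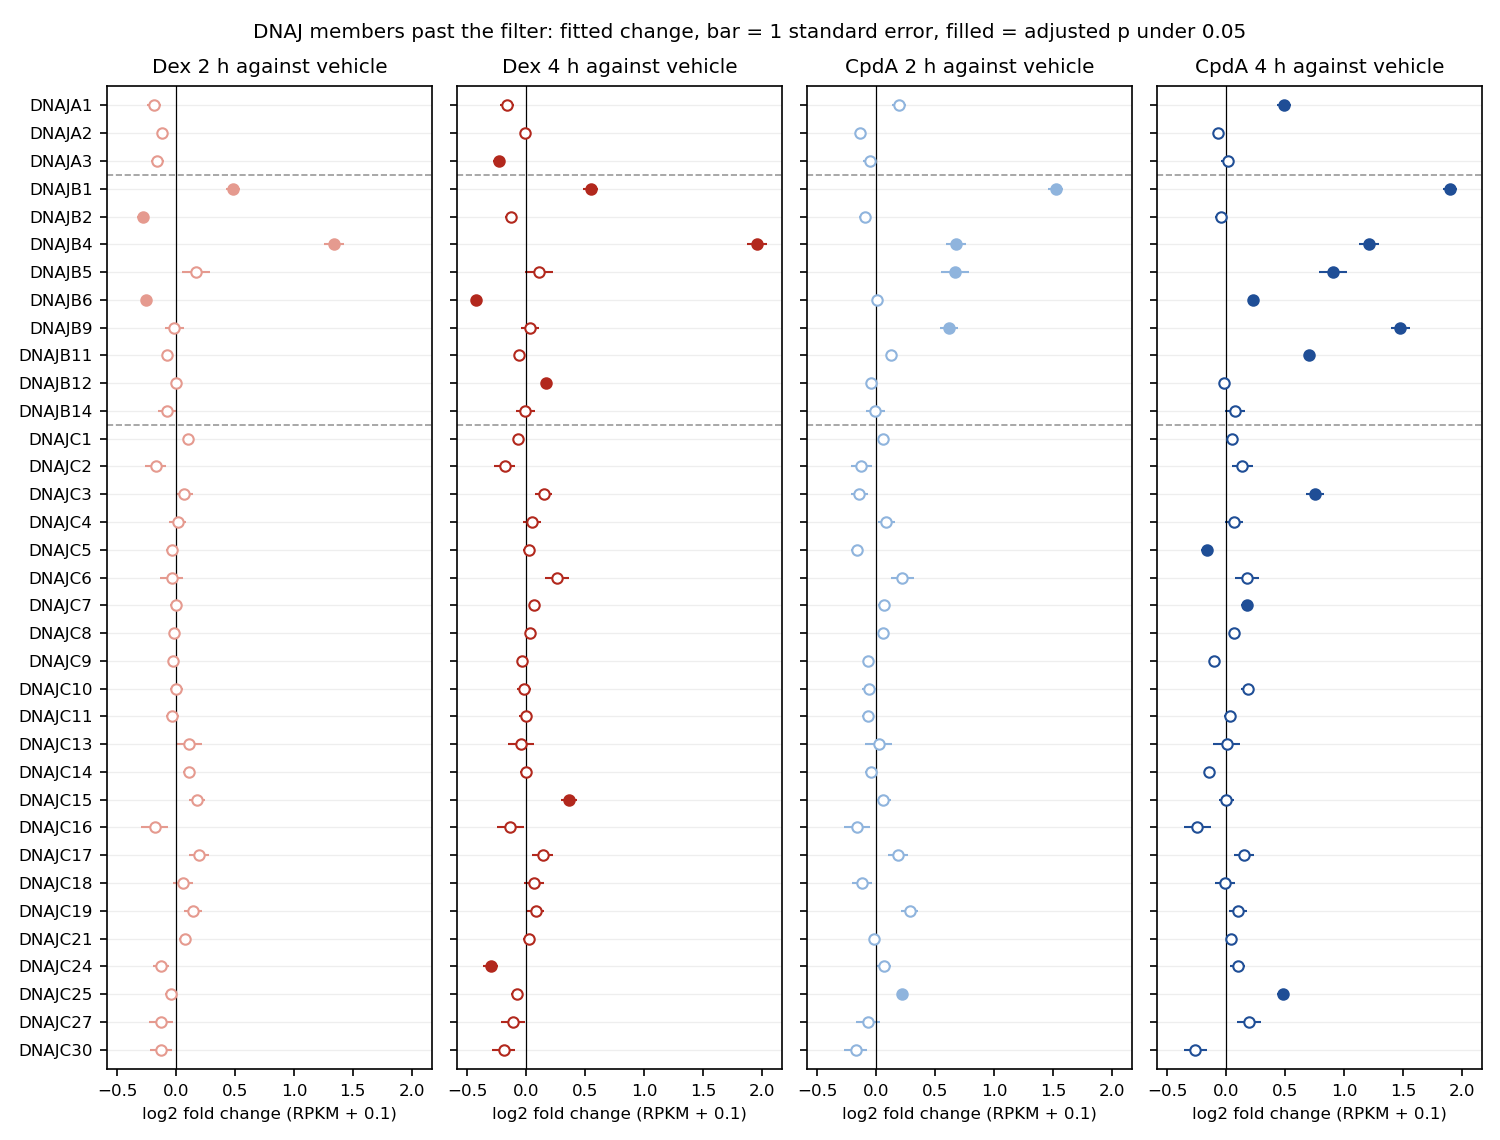
Fitted log2 fold change (RPKM + 0.1 scale) against vehicle of the 35 members past the filter, 1 panel per treatment, with bars for 1 standard error, filled points for adjusted p under 0.05 and dashed lines between classes A, B and C. DNAJB4 lies farthest to the right with Dex (1.34 and 1.96) and DNAJB1 with CpdA (1.52 and 1.90), while most class C members lie near 0.

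Calls are given by class as counts, with no test between classes. The shares of all genes called were 10.3%, 27.4%, 6.18% and 20.5% with Dex 2 h, Dex 4 h, CpdA 2 h and CpdA 4 h. Of the 9 class B members, 4 were called in each of Dex 2 h, Dex 4 h and CpdA 2 h and 6 with CpdA 4 h, which is 44.4% and 66.7%, and 8 were called at least once, DNAJB14 being the exception. Of the 23 class C members, 0, 2, 1 and 4 were called in the same order of treatments (0%, 8.7%, 4.35% and 17.4%), and 6 at least once. Of the 3 class A members, 0, 1, 0 and 1 were called, and 2 at least once. Where limma called 0, the unadjusted p was under 0.05 for 2 of the class C members with Dex at 2 h and, among class A, for 3 with Dex at 2 h and 2 with CpdA at 2 h. The median log2 fold change with CpdA at 4 h was 0.70 over class B, 0.07 over class C and 0.01 over class A, beside -0.04 over all genes. With Dex at 4 h the medians of class B, C and A were 0.03, -0.003 and -0.16, beside -0.05 over all genes.

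Summed over the members past the filter, class B RPKM was 271 ± 2.29 (SD, n = 2) with vehicle, 302 ± 2.31 and 321 ± 6.84 with Dex at 2 h and 4 h, and 449 ± 10.2 and 596 ± 20.0 with CpdA at 2 h and 4 h. Class C sums were 334 ± 6.75 with vehicle and between 329 ± 0.453 and 352 ± 2.98 in the treated groups. Class A sums were 165 ± 9.36 with vehicle, 146 ± 3.11 and 148 ± 6.46 with Dex, and 179 ± 1.70 and 214 ± 7.36 with CpdA. Class B thus held 35.2% of the family's summed RPKM with vehicle and 51.3% with CpdA at 4 h. The family's sum was 760 and 779 RPKM in the vehicle samples and 1144 and 1179 RPKM in the CpdA 4 h samples. No test was made on these sums.

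DNAJB1 alone carried 29.3% to 30.9% of the class B sum with vehicle and 49.3% to 52.9% with CpdA at 4 h. The class B sum relative to vehicle was 1.11 and 1.18 with Dex and 1.66 and 2.20 with CpdA. Without DNAJB1 the same ratios were 0.993 and 1.06 with Dex and 1.13 and 1.54 with CpdA. DNAJA1 carried 74.9% to 76.7% of the class A sum with vehicle and 81.5% to 82.2% with CpdA at 4 h. Without DNAJA1 the class A sum with CpdA was 0.930 and 0.977 of vehicle, instead of 1.09 and 1.30.

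**Figure D2:**
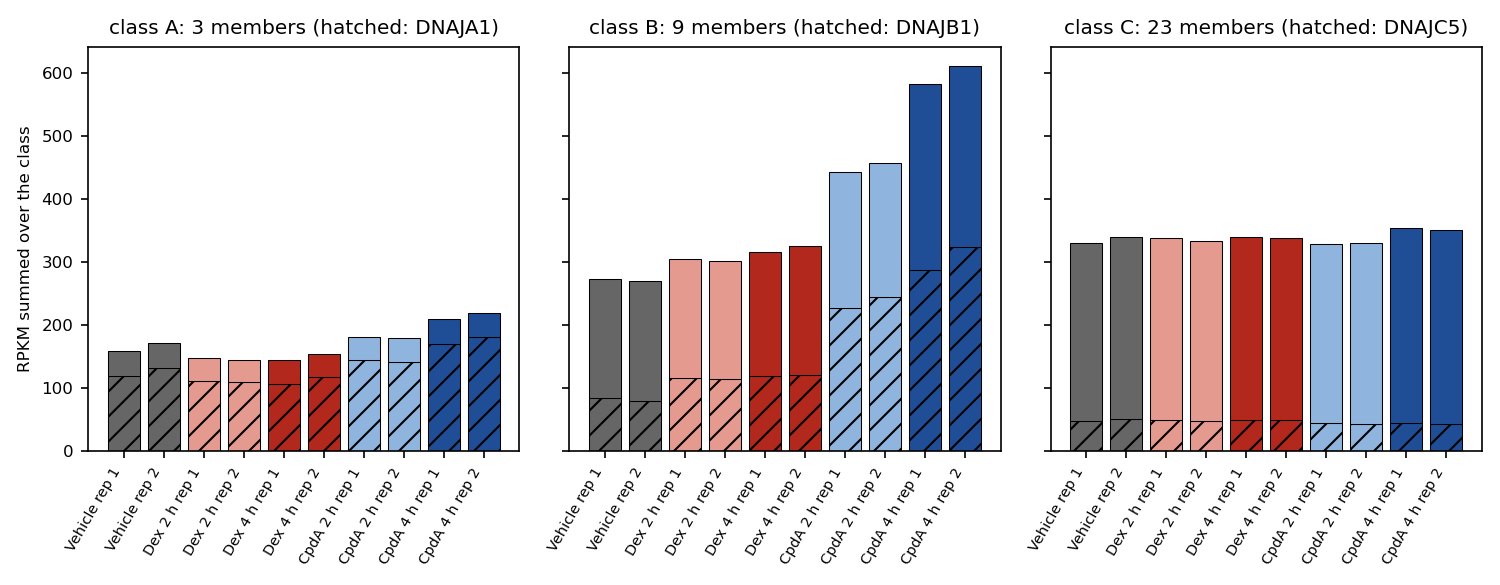
RPKM summed over the members of class A, B and C in each of the 10 samples, from 0, with the most abundant member of the class hatched at the bottom of each bar. The class B bars are highest in the 2 CpdA 4 h samples (582 and 610) and the class C bars lie between 329 and 354 in all samples.

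The members known to be induced by heat shock, DNAJA1, DNAJA4, DNAJB1 and DNAJB4, are cytosolic and work with HSC70 and HSP70. DNAJB1 is the inducible HSP40 that pairs with HSP70 in refolding and disaggregation. DNAJB1 measured 84.1 and 79.0 RPKM with vehicle, 115 and 113 with Dex at 2 h, 118 and 120.5 with Dex at 4 h, 226 and 243 with CpdA at 2 h, and 287 and 323 with CpdA at 4 h. The 5 groups did not overlap, and both CpdA groups lay far above both Dex groups. The log2 fold change by limma was 0.48 ± 0.062 (SE) with Dex at 2 h (adjusted p = 0.000878) and 0.55 ± 0.062 at 4 h (adjusted p = 0.000182). With CpdA it was 1.52 ± 0.062 at 2 h (2.88-fold, limma adjusted p = 2.79e-06) and 1.90 ± 0.062 at 4 h (3.73-fold, adjusted p = 4.23e-07). Exons of DNAJB1 share 525 bases, 6.41% of its exonic bases, with TECR on the opposite strand, and reads there cannot be told apart without strand.

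DNAJB4, a close cytosolic relative of DNAJB1, followed another order. It measured 8.57 and 10.5 RPKM with vehicle, 25.2 and 23.0 with Dex at 2 h, 36.8 and 37.6 with Dex at 4 h, 15.1 and 15.3 with CpdA at 2 h, and 21.4 and 22.8 with CpdA at 4 h. Every treated sample was above both vehicle samples, and at each time both Dex samples were above both CpdA samples. The log2 fold change by limma was 1.34 ± 0.086 with Dex at 2 h (adjusted p = 8.84e-06) and 1.96 ± 0.086 at 4 h (3.89-fold, adjusted p = 3.63e-07). With CpdA it was 0.68 ± 0.086 at 2 h (limma adjusted p = 0.00226) and 1.21 ± 0.086 at 4 h (adjusted p = 4.64e-05). DNAJB4 was the only member called higher with Dex than with CpdA at both times.

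DNAJA1 measured 118 and 131 RPKM with vehicle, 111 and 108 with Dex at 2 h, 106 and 117 with Dex at 4 h, 144 and 141 with CpdA at 2 h, and 169.9 and 180.0 with CpdA at 4 h. All Dex samples were below and all CpdA samples above both vehicle samples. Only the rise with CpdA at 4 h was called, by 0.49 ± 0.062 on the log2 scale (limma adjusted p = 0.00077), while CpdA at 2 h gave 0.19 (adjusted p = 0.112) and Dex -0.19 and -0.16 (adjusted p = 0.105 and 0.0822). The Dex values were called lower in some alternatives, at 2 h without vehicle replicate 1 (limma adjusted p = 0.0403), and at 4 h with the replicate block, with quantile normalization, without vehicle replicate 1 and without Dex 4 h replicate 2 (adjusted p down to 0.0223). DNAJA4, the fourth of these members, was below the filter. Its values were 0.0752 and 0.0457 RPKM with vehicle, between 0.0547 and 0.107 in the Dex and CpdA 2 h samples, and 0.165 and 0.259 with CpdA at 4 h, so that it was highest in both CpdA 4 h samples. When no filter was applied, DNAJA4 was called with CpdA at 4 h.

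**Figure D3:**
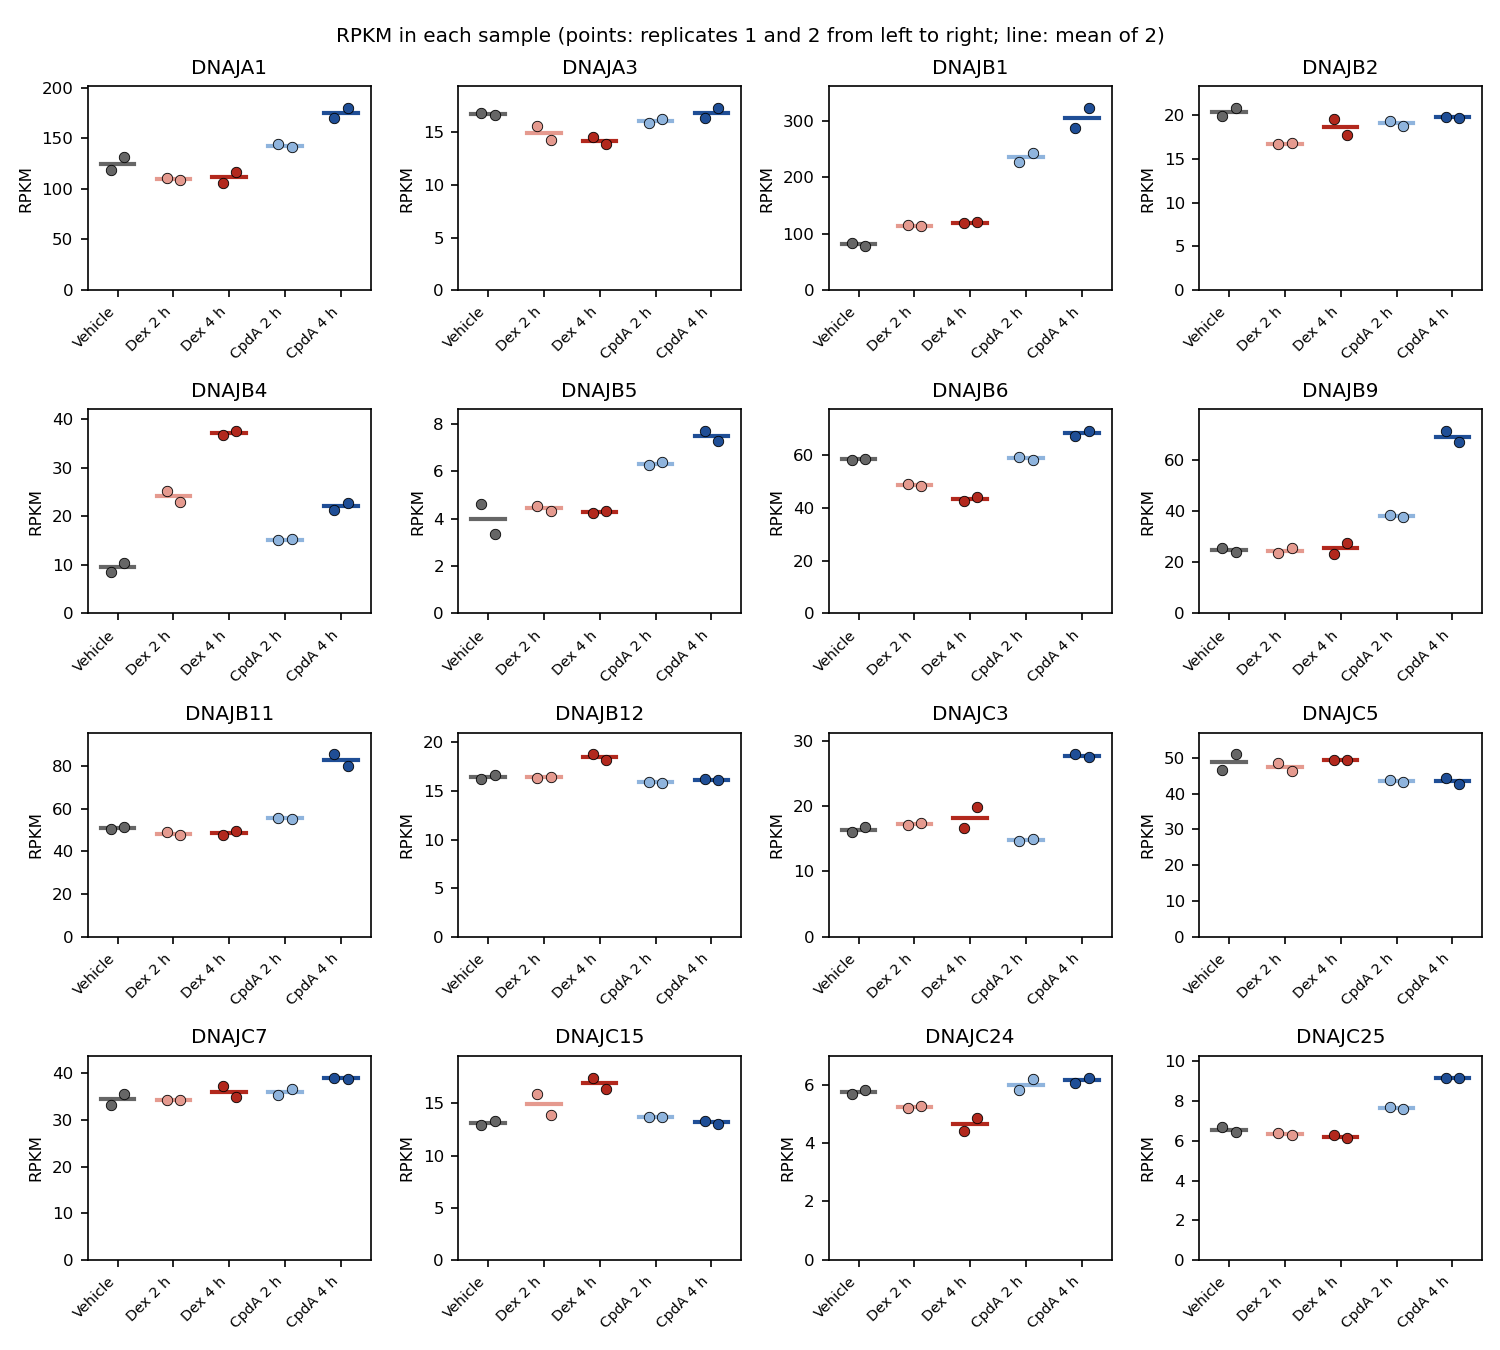
RPKM of the 16 members called against vehicle in at least 1 treatment, with 1 point per sample and a line at the mean of 2, each axis from 0. DNAJB1, DNAJB9, DNAJB11 and DNAJC3 have their highest points with CpdA at 4 h (287 and 323 for DNAJB1), DNAJB4 with Dex at 4 h (36.8 and 37.6), and DNAJB6 has its lowest points with Dex at 4 h (42.8 and 44.3).

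Promoter windows are shown for 4 called class A and B members whose windows hold heat shock element letters, and for DNAJB9, a called ER member, beside them. A window holds 250 bases before and 50 after a transcript start annotated by RefSeq (GRCh38.p14), read 5′ to 3′ on the strand of the gene, and positions count from 0 at the first of the 50 bases. Windows were found for 40 of the 44 members. The windows of DNAJB1 (chr19:14518348-14518647, minus strand, 1 of 3 windows of this gene and the one with the most matched bases), DNAJA1 (chr9:33025023-33025322, plus strand), DNAJB6 (chr7:157336754-157337053, plus strand), DNAJB4 (chr1:78004689-78004988, plus strand, 1 of 2 windows) and DNAJB9 (chr7:108569624-108569923, plus strand) follow, with matches to a heat shock element in capitals and the DNAJB9 window without any.
DNAJB1: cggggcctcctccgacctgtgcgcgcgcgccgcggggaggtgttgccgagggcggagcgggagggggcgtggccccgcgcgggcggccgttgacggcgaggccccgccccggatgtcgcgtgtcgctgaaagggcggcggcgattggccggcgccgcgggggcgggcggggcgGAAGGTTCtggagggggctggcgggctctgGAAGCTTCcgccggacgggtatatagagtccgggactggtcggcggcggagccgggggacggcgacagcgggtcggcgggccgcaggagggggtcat
DNAJA1: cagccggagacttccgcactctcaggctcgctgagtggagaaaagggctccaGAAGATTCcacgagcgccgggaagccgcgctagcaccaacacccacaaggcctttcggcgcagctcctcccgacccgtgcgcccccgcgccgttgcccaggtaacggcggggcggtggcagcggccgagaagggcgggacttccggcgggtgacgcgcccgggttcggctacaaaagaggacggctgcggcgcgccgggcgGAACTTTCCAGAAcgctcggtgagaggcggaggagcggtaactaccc
DNAJB6: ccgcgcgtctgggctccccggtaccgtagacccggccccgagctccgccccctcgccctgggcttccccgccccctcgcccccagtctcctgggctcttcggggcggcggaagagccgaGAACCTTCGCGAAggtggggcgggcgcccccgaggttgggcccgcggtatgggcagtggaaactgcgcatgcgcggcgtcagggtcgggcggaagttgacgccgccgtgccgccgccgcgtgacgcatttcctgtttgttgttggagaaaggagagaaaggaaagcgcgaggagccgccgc
DNAJB4: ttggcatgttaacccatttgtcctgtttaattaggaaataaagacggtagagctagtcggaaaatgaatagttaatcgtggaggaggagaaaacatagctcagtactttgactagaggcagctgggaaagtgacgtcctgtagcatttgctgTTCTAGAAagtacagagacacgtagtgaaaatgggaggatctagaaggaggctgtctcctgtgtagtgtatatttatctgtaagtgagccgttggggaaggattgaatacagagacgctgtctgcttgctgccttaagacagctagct
DNAJB9: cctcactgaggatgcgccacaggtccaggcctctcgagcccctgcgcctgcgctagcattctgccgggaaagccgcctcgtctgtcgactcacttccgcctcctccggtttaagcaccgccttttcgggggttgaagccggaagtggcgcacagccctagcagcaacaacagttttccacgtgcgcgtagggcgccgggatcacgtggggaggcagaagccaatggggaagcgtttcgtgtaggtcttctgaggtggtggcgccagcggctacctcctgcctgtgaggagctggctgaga
Both strands were searched for the element as GAANNTTC or TTCNNGAA, each made of 2 units in opposite orientation. A longer form of 3 units was searched as well. In it a GAANNTTC and a TTCNNGAA share their TTC, so that it contains 1 match of each shorter form.

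The longer form stood in 0.490% of all 35116 windows, and for 0.608% of the 27305 genes with a window. Among the 40 members with a window it stood for 2, DNAJA1 (bases 3 to 15) and DNAJB6 (bases -131 to -119). GAANNTTC stood in 6.77% of all windows, and for 8.21% of the genes. Of the 40 members 6 held it, DNAJA1, DNAJA4, DNAJB1, DNAJB6, DNAJB7 and DNAJC6. In the printed DNAJB1 window it occurred at bases -77 to -70 and -47 to -40. TTCNNGAA stood in 7.74% of all windows, and for 9.46% of the genes. Of the 40 members 4 held it, DNAJA1, DNAJB4 (bases -98 to -91), DNAJB6 and DNAJC15. The ER stress response element stood in 0.0769% of all windows, and for 0.0916% of the genes. For the palindromic glucocorticoid response element these shares were 0.390% and 0.48%. Neither stood in a window of a member, which is likely at such low shares among 40 members and is not read as a result. These matches describe letters in 300-base windows. Binding of heat shock factor 1, of ER stress factors or of the glucocorticoid receptor at these windows was not analysed here. The authors placed most Dex-responsive binding of the receptor outside promoters.

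**Figure D4:**
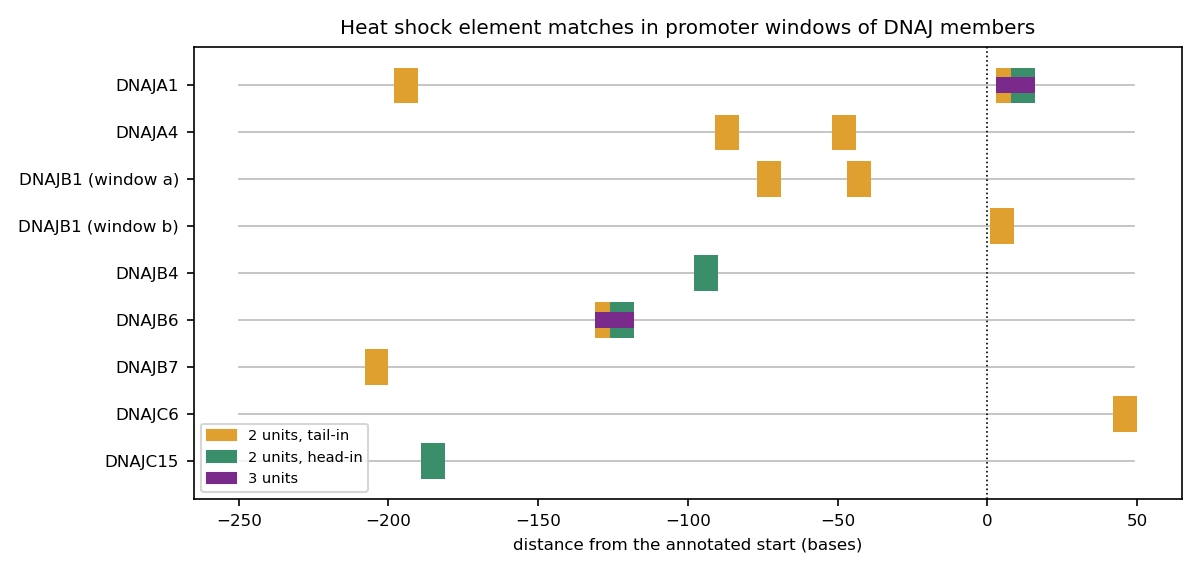
Heat shock element matches in the promoter windows of the members that hold one, by distance in bases from the annotated start (dotted line). The legend's tail-in stands for GAANNTTC and head-in for TTCNNGAA, as labels of these letters and not of an orientation. Its 3 units stands for the form that joins both. The 3-unit form lies at bases 3 to 15 of DNAJA1 and at bases -131 to -119 of DNAJB6, and window a of DNAJB1 is the one printed.

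DNAJB5 and DNAJB6 are further cytosolic and nuclear class B members. DNAJB6, a suppressor of protein aggregation, measured 58.3 and 58.7 RPKM with vehicle, 49.2 and 48.5 with Dex at 2 h, 42.8 and 44.3 with Dex at 4 h, 59.4 and 58.3 with CpdA at 2 h, and 67.5 and 69.2 with CpdA at 4 h. It lay below vehicle in all Dex samples, overlapped vehicle with CpdA at 2 h, and lay above it with CpdA at 4 h. DNAJB6 fell by 0.26 on the log2 scale with Dex at 2 h (limma adjusted p = 0.00169) and by 0.42 at 4 h (adjusted p = 3.2e-05), and rose by 0.22 with CpdA at 4 h (adjusted p = 0.00292). It was the only member called in opposite directions with the 2 ligands.

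DNAJB5, a close relative of DNAJB1 and DNAJB4, measured 4.61 and 3.36 RPKM with vehicle, between 4.22 and 4.53 in the 4 Dex samples, 6.25 and 6.37 with CpdA at 2 h, and 7.69 and 7.27 with CpdA at 4 h. The Dex samples lay between the vehicle samples and the CpdA samples lay above both. DNAJB5 rose by 0.67 ± 0.119 on the log2 scale with CpdA at 2 h (limma adjusted p = 0.0127) and by 0.91 ± 0.119 at 4 h (adjusted p = 0.00092). The call at 2 h was lost without either CpdA 2 h replicate, with no filter and in a fit on only the 4 samples compared. Its value was 0.445 without vehicle replicate 2. DNAJB2, a member with ubiquitin-interacting motifs that is best known from neurons, measured 19.9 and 20.8 RPKM with vehicle, 16.6 and 16.8 with Dex at 2 h, and between 17.8 and 19.8 in the other treated samples. It fell by 0.28 with Dex at 2 h (limma adjusted p = 0.00726), with both Dex 2 h samples below all others, and the call was lost without vehicle replicate 2 or without Dex 2 h replicate 1 (adjusted p up to 0.0634).

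The 10 members listed as ER members, in a chosen list that need not be complete, all passed the filter. They were DNAJB9, DNAJB11, DNAJB12, DNAJB14, DNAJC1, DNAJC3, DNAJC10, DNAJC16, DNAJC18 and DNAJC25. Of these, 0, 1, 2 and 4 were called with Dex 2 h, Dex 4 h, CpdA 2 h and CpdA 4 h. That is 0%, 10%, 20% and 40% of them, against 10.3%, 27.4%, 6.18% and 20.5% of all genes. All calls of ER members were higher than vehicle, and with Dex at 2 h, where limma called 0, the unadjusted p was under 0.05 for 1 of the 10. DNAJB9 (ERdj4), which binds the HSP70 of the ER and takes part in the degradation of misfolded proteins, measured 25.6 and 23.9 RPKM with vehicle, between 23.3 and 27.5 in the 4 Dex samples, 38.4 and 37.7 with CpdA at 2 h, and 71.3 and 67.0 with CpdA at 4 h. The Dex and vehicle samples overlapped and the CpdA samples lay above all of them. DNAJB9 rose by 0.62 ± 0.078 on the log2 scale with CpdA at 2 h (limma adjusted p = 0.00228) and by 1.48 ± 0.078 at 4 h (2.79-fold, adjusted p = 9.56e-06).

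DNAJB11 (ERdj3) is a soluble partner of the same ER chaperone. It measured 50.2 and 51.5 RPKM with vehicle, between 47.6 and 49.7 in the 4 Dex samples, 55.6 and 55.3 with CpdA at 2 h, and 85.4 and 80.1 with CpdA at 4 h. DNAJB11 rose by 0.70 ± 0.044 with CpdA at 4 h (limma adjusted p = 2.09e-05), while at 2 h its difference of 0.13 was not called (adjusted p = 0.138). TBCCD1 on the opposite strand shares 381 exonic bases with DNAJB11, 4.06% of them. DNAJC3 (p58IPK), a co-chaperone of the ER lumen also described as an inhibitor of the eIF2α kinases PERK and PKR, measured 16.0 and 16.7 RPKM with vehicle, 17.0 and 17.4 with Dex at 2 h, 16.6 and 19.9 with Dex at 4 h, 14.7 and 15.0 with CpdA at 2 h, and 27.9 and 27.5 with CpdA at 4 h. Its CpdA 2 h samples were the lowest of all and its CpdA 4 h samples the highest. DNAJC3 rose by 0.75 ± 0.073 with CpdA at 4 h (limma adjusted p = 0.000205), and its difference of -0.14 at 2 h was not called (adjusted p = 0.318).

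DNAJC25, the other ER member called with CpdA, measured 6.71 and 6.42 RPKM with vehicle, between 6.13 and 6.40 in the 4 Dex samples, 7.73 and 7.61 with CpdA at 2 h, and 9.18 and 9.19 with CpdA at 4 h. Its CpdA samples lay above all others, and it rose by 0.48 ± 0.049 at 4 h (limma adjusted p = 0.000273) and by 0.22 at 2 h (adjusted p = 0.0324). The call at 2 h was lost without vehicle replicate 2, without either CpdA 2 h replicate and in a fit on only the 4 samples compared. A readthrough gene, DNAJC25-GNG10, shares 358 exonic bases with it on the same strand, 13.7% of its exonic bases. DNAJB12, an ER-anchored member whose J domain faces the cytosol, measured 18.8 and 18.2 RPKM with Dex at 4 h and between 15.8 and 16.6 in the 8 other samples. It was the only ER member called with Dex, at 0.17 (limma adjusted p = 0.0122), and the call was lost without vehicle replicate 1 (adjusted p = 0.0544) and in a fit on only the 4 samples compared (adjusted p = 0.185). DNAJC10 (ERdj5), an ER reductase, measured 27.1 and 27.6 RPKM with CpdA at 4 h and between 22.5 and 25.1 elsewhere, and its difference of 0.18 was not called (limma adjusted p = 0.0522).

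Among the mitochondrial members 6 of 7 passed the filter, and 2 were called, both with Dex at 4 h, 1 higher and 1 lower. That is 33.3% of them, near the 27.4% of all genes called there. In the 3 other treatments limma called 0, and the unadjusted p was under 0.05 for 2 (Dex 2 h), 1 (CpdA 2 h) and 1 (CpdA 4 h). Of all genes, 10.3%, 6.18% and 20.5% were called in these 3. DNAJC15, a member of the inner membrane, measured 12.97 and 13.4 RPKM with vehicle, 15.9 and 13.9 with Dex at 2 h, 17.5 and 16.4 with Dex at 4 h, and between 13.02 and 13.7 in the 4 CpdA samples. It rose by 0.36 ± 0.065 with Dex at 4 h (limma adjusted p = 0.00303), with both Dex 4 h samples above all others. DNAJA3 (TID1), the class A member that serves mitochondrial HSP70, measured 16.8 and 16.6 RPKM with vehicle, 15.6 and 14.3 with Dex at 2 h, 14.6 and 13.9 with Dex at 4 h, and between 15.9 and 17.3 with CpdA. DNAJA3 fell by 0.23 with Dex at 4 h (limma adjusted p = 0.0118). The call was lost under median scaling, without vehicle replicate 1 and in a fit on only the 4 samples compared.

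DNAJC24, which acts in the synthesis of diphthamide on elongation factor 2, measured 5.68 and 5.80 RPKM with vehicle, 5.22 and 5.26 with Dex at 2 h, 4.41 and 4.87 with Dex at 4 h, and between 5.81 and 6.24 with CpdA. Both Dex 4 h samples were the lowest, and DNAJC24 fell by 0.30 ± 0.064 with Dex at 4 h (limma adjusted p = 0.00722), a call lost in a fit on only the 4 samples compared (adjusted p = 0.091). DNAJC7 (TPR2), which binds both HSP70 and HSP90 through its TPR domains, measured 33.3 and 35.6 RPKM with vehicle, 39.1 and 38.7 with CpdA at 4 h and between 34.3 and 37.3 elsewhere. It rose by 0.18 with CpdA at 4 h (limma adjusted p = 0.0307). The call was lost without vehicle replicate 1, without either CpdA 4 h replicate, with no filter and with a robust prior variance without trend. Opposite-strand genes share 3.38% (CNP) and 3.71% (NKIRAS2) of the exonic bases of DNAJC7, and IMMP1L shares 1.96% of those of DNAJC24.

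DNAJC5 (cysteine string protein), a palmitoylated chaperone of synaptic and secretory vesicles and the most abundant class C member, was the only member called lower with CpdA. It measured 46.7 and 51.0 RPKM with vehicle, between 46.5 and 49.6 in the 4 Dex samples, 43.7 and 43.2 with CpdA at 2 h, and 44.3 and 42.7 with CpdA at 4 h. All 4 CpdA samples lay below all others. DNAJC5 fell by 0.17 with CpdA at 4 h (limma adjusted p = 0.0428), and its equal difference of -0.17 at 2 h was not called (adjusted p = 0.0847). The call at 4 h was lost in 7 of 13 alternatives, and the value was -0.10 without vehicle replicate 2. The other membrane traffic members past the filter, DNAJC6 and DNAJC13, which act in clathrin uncoating and endosomal sorting, were not called.

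The 4 members linked to splicing or the ribosome, DNAJC2, DNAJC8, DNAJC17 and DNAJC21, gave 0 calls by limma in each of the 4 treatments, and 0 had an unadjusted p under 0.05. Of all genes, 10.3%, 27.4%, 6.18% and 20.5% were called with Dex 2 h, Dex 4 h, CpdA 2 h and CpdA 4 h. The log2 fold changes of these 4 members lay between -0.18 and 0.19. Altogether 19 members past the filter were called in no treatment against vehicle. Their log2 fold changes ran from -0.26 (DNAJC30, CpdA at 4 h) to 0.28 (DNAJC19, CpdA at 2 h), the highest of the 10 samples was 1.07 to 1.39 times the lowest, and standard errors over all members ran from 0.037 to 0.119. DNAJC8, a component of the spliceosome, is an example, with 31.1 to 34.3 RPKM over all samples. A missed threshold does not show that such a member did not change.

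The ligands were compared directly at each time, at doses that differ by design (100 nM and 10 μM), so that ligand and dose cannot be told apart. At 2 h 9 members were called between Dex and CpdA, 25.7% of the members against 13.7% of all genes (7.53% higher and 6.18% lower with Dex). DNAJB4 was higher with Dex by 0.66, and the other 8 were lower with Dex, led by DNAJB1 (-1.04, limma adjusted p = 4.52e-06), DNAJB9 (-0.64), DNAJB5 (-0.50) and DNAJA1 (-0.38), with DNAJC25, DNAJB6, DNAJB11 and DNAJB2 between -0.27 and -0.18. The calls of DNAJB5, DNAJB11 and DNAJB2 were lost on leaving out any 1 of the 4 replicates compared. Those of DNAJB5 and DNAJB2 were also lost with no filter, and that of DNAJB2 under median scaling and with a robust prior variance without trend. That of DNAJC25 was lost without Dex 2 h replicate 2 or CpdA 2 h replicate 1. The count was 5 without Dex 2 h replicate 2 or without CpdA 2 h replicate 1. At 4 h 17 members were called, 48.6% of the members against 33.4% of all genes (15.4% higher and 18% lower with Dex), and 4 of them were higher and 13 lower with Dex. DNAJB9 differed most (-1.44, limma adjusted p = 1.23e-06), followed by DNAJB1 (-1.35), DNAJB5 (-0.80), DNAJB11 (-0.77), DNAJA1 (-0.65), DNAJB6 (-0.65) and DNAJC3 (-0.61). The 4 that were higher with Dex at 4 h were DNAJB4 by 0.75, DNAJC15 by 0.36, DNAJB12 by 0.19 and DNAJC5 by 0.19. DNAJC2, DNAJC10 and DNAJC27, not called against vehicle and picked out after their values were seen, were lower with Dex than with CpdA at 4 h by -0.32, -0.20 and -0.30 (limma adjusted p = 0.0211, 0.0231 and 0.0462). Each of these calls was lost without CpdA 4 h replicate 1 and also without CpdA 4 h replicate 2, and in further alternatives. PMPCB on the opposite strand shares 20.9% of the exonic bases of DNAJC2. In all 18 members were called between the ligands at either time and 8 at both, with no share of all genes counted for these totals.

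Between 2 h and 4 h of Dex 4 members were called, 11.4% against 13.6% of all genes (4.55% higher and 9.02% lower). DNAJB4 was higher at 4 h by 0.62 (limma adjusted p = 0.00198) and DNAJB12 by 0.17, and DNAJB6 and DNAJC1, an ER member picked out after its values were seen, were lower by -0.17 and -0.17. The count moved to 2, 1, 2 and 7 when Dex 2 h replicate 1, Dex 2 h replicate 2, Dex 4 h replicate 1 and Dex 4 h replicate 2 were left out, and quantile and median scaling gave 4 higher and 2 lower and 3 higher and 0 lower. Only DNAJB4 stayed called in all of these, and the number of all genes called moved in them as well. Between 2 h and 4 h of CpdA 9 members were called, all higher at 4 h, which is 25.7% against 12.4% of all genes (5.21% higher and 7.2% lower). The largest were DNAJC3 by 0.90 (limma adjusted p = 0.000366), DNAJB9 by 0.86 (adjusted p = 0.000686), DNAJB11 by 0.58 (adjusted p = 0.000268) and DNAJB4 by 0.53. DNAJB1, called at both times, was higher by 0.37 (limma adjusted p = 0.00727), a call lost without CpdA 2 h replicate 1 or without CpdA 4 h replicate 2 (adjusted p up to 0.0733). Without CpdA 2 h replicate 1 or 2 the count was 3 or 4, and without CpdA 4 h replicate 1 or 2 it was 5 or 3, and in each case DNAJB9, DNAJB11 and DNAJC3 were among those called.

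The partners that J-domain proteins serve were read from the same fit. Of 16 HSP70 and HSP110 genes 12 passed the filter, and 0, 3, 5 and 9 were called with Dex 2 h, Dex 4 h, CpdA 2 h and CpdA 4 h. These are 0%, 25%, 41.7% and 75% of the 12, against 10.3%, 27.4%, 6.18% and 20.5% of all genes. With Dex at 4 h the share was thus near that of all genes. The 3 with Dex were lower (HSPA4L, HSPH1 and HSPA14 at -0.65, -0.41 and -0.28), and all with CpdA were higher. With Dex at 2 h, where limma called 0, the unadjusted p was under 0.05 for 4 of the 12. HSPA6, the strictly inducible HSP70, measured 0.331 and 0.457 RPKM with vehicle, between 0.302 and 0.451 in the 4 Dex samples, 11.6 and 13.8 with CpdA at 2 h, and 43.6 and 54.4 with CpdA at 4 h. It was below 0.5 RPKM in all vehicle and Dex samples and passed the filter only through the CpdA samples, so its calls follow from that choice and no fold is given. Without HSPA6 the calls with CpdA were 4 and 8 of 11. With CpdA at 4 h the largest of these 8 were HSPA1A (3.69 on the log2 scale), HSPA1B (3.40), HSPH1 (1.07), HSPA5 (0.87) and HYOU1 (0.64). HSPA1A and HSPA1B are near-identical copies between which reads could be split, and HSPA5 (BiP) and HYOU1 are the HSP70 and HSP110 of the ER that DNAJB9, DNAJB11 and DNAJC3 work with. HSPA5 measured 438 and 433 RPKM with vehicle, 538 and 534 with CpdA at 2 h, and 806 and 788 with CpdA at 4 h, above all other groups. At 4 h all 11 others were called lower with Dex than with CpdA, beside HSPA6. Of all genes, 33.4% were called in that comparison, 18% lower with Dex.

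All 13 other HSP70 co-factors passed the filter, and 3, 6, 3 and 7 were called in the same order of treatments, which is 23.1%, 46.2%, 23.1% and 53.8% against 10.3%, 27.4%, 6.18% and 20.5% of all genes. Of these, 1, 1, 2 and 6 were higher and 2, 5, 1 and 1 lower, BAG3 being the only one higher with Dex. BAG3, an exchange factor that is inducible by stress, was called higher in all 4, by 0.80 and 0.65 with Dex and by 0.36 and 0.69 with CpdA, as DNAJB1 and DNAJB4 were. It measured 56.7 and 53.9 RPKM with vehicle, 96.998 and 95.5 with Dex at 2 h, and 84.9 and 94.1 with CpdA at 4 h. The mitochondrial exchange factors GRPEL1 and GRPEL2 were lower with Dex at 4 h by -0.21 and -0.36 and higher with CpdA at 4 h by 0.17 and 0.21. BAG2 was likewise called in both, at -0.34 with Dex at 4 h and 0.22 with CpdA at 4 h, so this pattern was not particular to the mitochondrial factors. BAG1 and BAG5 were also called lower with Dex at 4 h (-0.24 and -0.19), and BAG5 was called lower with CpdA at 4 h too (-0.22).

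**Figure D5:**
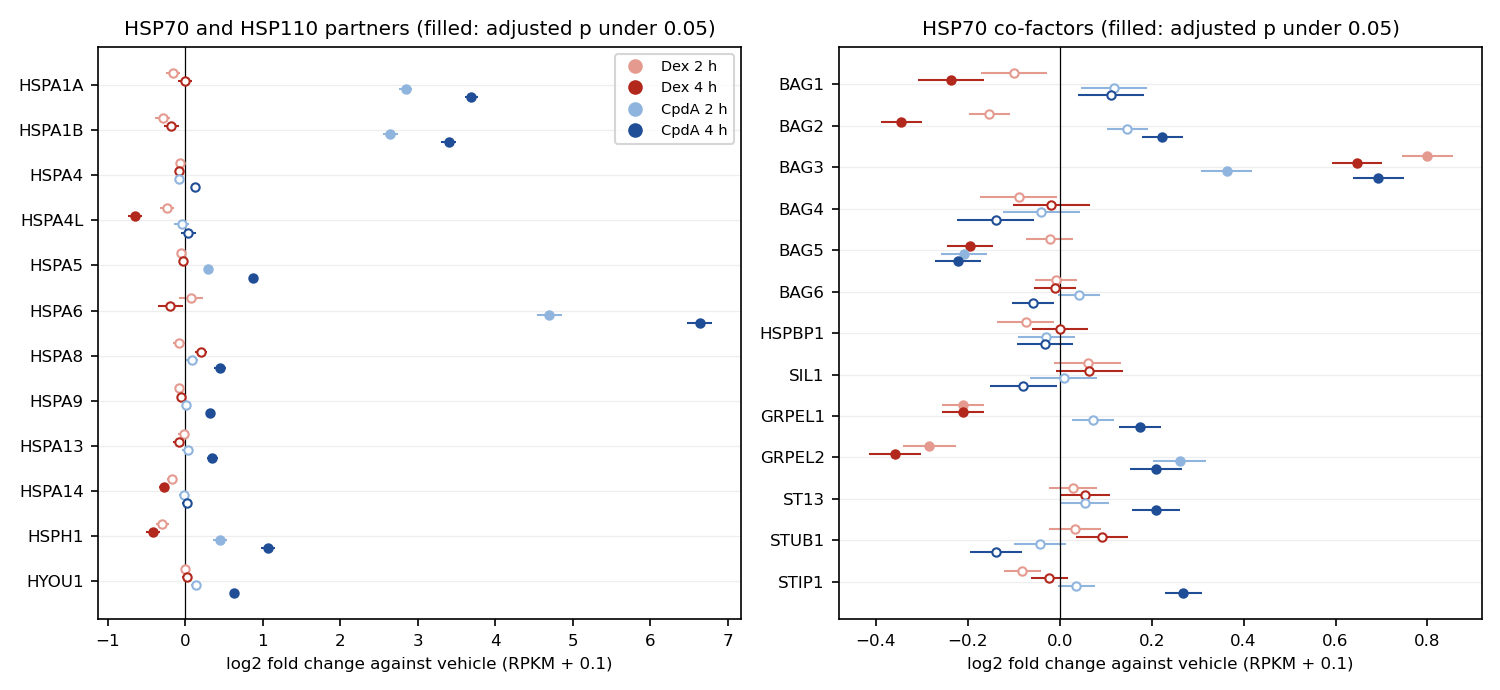
Fitted log2 fold change (RPKM + 0.1 scale) against vehicle of the HSP70 and HSP110 genes (left) and the other HSP70 co-factors (right, narrower axis) past the filter, with 1 point per treatment, bars for 1 standard error and filled points for adjusted p under 0.05. HSPA1A and HSPA1B lie far to the right with CpdA (3.69 and 3.40 at 4 h), HSPA6, farther right, passed the filter only through its CpdA samples, and BAG3 lies to the right of 0 with both ligands.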

How the data were processed

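RNA-seq was done on 10 of the 22 samples of the series, and the chromatin samples were not analysed here. Per the methods, the authors aligned single-end reads with TopHat2 2.0.13 and took abundances from Partek 6.6 at default settings, and they deposited RPKM per gene symbol. The submitters' processing notes also name Bowtie and the build hg19, without saying for which step. The annotation and the use of strand in counting are not given in the sources used here. Read totals are unknown, so no counting intervals were given.

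The filter kept genes that reached an RPKM of 0.5 in 2 or more samples, values entered as log2(RPKM + 0.1), and 1 model over the 5 groups was fitted in limma 3.58.1 (R 4.3.3, with a trended prior variance). Adjusted p-values are Benjamini-Hochberg values over the 12713 genes, separately for each comparison. Fits were tested on simulated data. A permutation test of 2 against 2 samples could not go below 0.333, so none was used. Sums by class and figures were made in Python 3.11.15 (pandas 2.3.3, matplotlib 3.10.9). Exon overlaps were counted in GENCODE annotation on GRCh37 and motifs in RefSeq windows on GRCh38.p14.

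Values in every sample were to be given for members called in at least 1 treatment against vehicle, for the most abundant member of each class, and for DNAJB1, DNAJA1, DNAJB9 and DNAJC3, and partner genes where called, largest first, at most 6 a comparison. HSPA5, BAG1, BAG2, BAG3, BAG5, GRPEL1 and GRPEL2 and members outside this rule were picked out after their values were seen. The members and lists were chosen with earlier results of these data known. Alternatives changed the pseudocount, the filter, the scaling, the variance prior, the replicate block, the samples in the fit and single replicates. Replicate pairs shared at most 1 identical nonzero value and were kept as separate samples. A list of J-domain genes under other symbols is not reported here.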

Additional observations from a re-analysis of the deposited data

Results flagged for a closer look

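These members were listed because their level was called different between the 2 time points of a ligand. The difference was tested as 4 h against 2 h of the same ligand in the limma fit, at an adjusted p under 0.05. Vehicle does not enter this comparison. The headers name only 1 vehicle sample for each time, so a change with time alone was not tested. It cannot be told apart here from a change in the effect of the ligand. With Dex the log2 difference was 0.62 for DNAJB4, 0.17 for DNAJB12, -0.17 for DNAJB6 and -0.17 for DNAJC1. With CpdA it was 0.90 for DNAJC3, 0.86 for DNAJB9, 0.58 for DNAJB11, 0.53 for DNAJB4, 0.37 for DNAJB1, 0.30 for DNAJA1, 0.26 for DNAJC25, 0.24 for DNAJC10 and 0.22 for DNAJB6. The CpdA calls of DNAJC3, DNAJB9 and DNAJB11 and the Dex call of DNAJB4 held in all alternatives. With CpdA, those of DNAJA1, DNAJB6, DNAJC25 and DNAJC10 were lost on leaving out any 1 of the 4 replicates. Those of DNAJA1 and DNAJC10 were also lost with no filter, and that of DNAJC10 with a robust prior variance without trend. The CpdA call of DNAJB4 was lost without CpdA 2 h replicate 1, CpdA 2 h replicate 2 or CpdA 4 h replicate 2, and that of DNAJB1 without CpdA 2 h replicate 1 or CpdA 4 h replicate 2. With Dex, the calls of DNAJB12, DNAJB6 and DNAJC1 were lost without Dex 2 h replicate 1, Dex 2 h replicate 2 or Dex 4 h replicate 1 and on only the 4 samples compared, and those of DNAJB6 and DNAJC1 also under median scaling.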

How the results depend on the processing

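Of 27 calls of members against vehicle, 19 held in all 13 alternatives, among them all calls of DNAJB1, DNAJB4, DNAJB6 and DNAJB9, and those of DNAJA1, DNAJB11, DNAJC3 and DNAJC15. No value of a named member that was called changed sign in any alternative. DNAJB2, DNAJB12, DNAJA3, DNAJC24, DNAJC5, DNAJC7 and the 2 h calls of DNAJB5 and DNAJC25 with CpdA were lost in at least 1. Fits on only the 4 samples of a comparison called 4 members with Dex at 4 h, 3 with CpdA at 2 h and 1 between the times of Dex. With 1 replicate left out, where the lone sample is assumed to vary like the other groups, the counts ran from 3 to 8 (Dex 2 h), 7 to 11 (Dex 4 h), 3 to 7 (CpdA 2 h), 9 to 11 (CpdA 4 h), 5 to 6 and 12 to 18 (Dex against CpdA at 2 h and 4 h), 1 to 7 (Dex, 4 h against 2 h) and 3 to 5 (CpdA, 4 h against 2 h). The number of all genes called also moved in these runs, and the cause was not tested.

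Without its most abundant member, the class A sum relative to vehicle was 0.930 and 0.977 with CpdA at 2 h and 4 h, the class B sum 0.993 and 1.06 with Dex and 1.13 and 1.54 with CpdA, and the class C sum 1.08 with CpdA at 4 h. Median scaling gave class B 1.24 (Dex 4 h) and 2.30 (CpdA 4 h), and class C 1.06 (Dex 4 h), 1.01 (CpdA 2 h) and 1.10 (CpdA 4 h).

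Whether the replicate numbers pair the samples was not settled. Deviations from the group means correlated between -0.06 and 0.20 over the 10 pairs of groups, and 3 pairs exceeded 0.1. A fit with a replicate block gave counts of 4, 8, 6 and 13 against vehicle (Dex 2 h, Dex 4 h, CpdA 2 h, CpdA 4 h), 9 and 18 between ligands, and 4 and 9 between times of Dex and CpdA. Over all genes, the block gave 1454, 3763, 918 and 2884 calls against vehicle, in place of 1311, 3487, 786 and 2609.

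Read totals are unknown, each group had 2 replicates, and the 9 members below the filter were not tested in the main fit.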
